A study of Mus musculus with 24 samples.

Results

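The glutathione, glucuronosyl and sulfo transferases are the enzymes that attach glutathione, glucuronic acid or sulfate to drugs, toxins, hormones and bile pigments. Every probe whose gene symbol on the array platform belonged to the cytosolic glutathione transferases (Gsta, Gstk, Gstm, Gsto, Gstp, Gstt), the microsomal ones (Mgst), the glucuronosyltransferases (Ugt1a, Ugt2, Ugt3) or the sulfotransferases (Sult) was taken. That gave 98 of the 45281 probes, for 60 genes. Of these, 68 probes for 42 genes passed the detection filter, a detection p under 0.05 on at least 4 of the 24 arrays, as did 19631 probes in all.

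Liver RNA of male C57BL/6J mice, 12 weeks old per the labels, was measured 6 h after surgery on Illumina BeadChip arrays. The groups were obese mice after sham surgery, 70% hepatectomy or 80% hepatectomy, and lean mice after the same 3 procedures, with 4 arrays in each. Obese mice had diet-induced obesity, lean mice were their controls, both stayed on the supplier's formulation, and sham surgery opened the abdomen and handled the liver without removing tissue. The labels name no genetic change in any group, and whole liver was used, so RNA of all liver cells is pooled in each value. Nothing in the labels says whether an array is a mouse of its own, so p-values here reflect only how far such labelled replicates differ.

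Conjugation is the second phase of detoxification: it makes a molecule more soluble and ready for export into bile or blood. Glutathione transferases of the alpha, mu, pi and theta classes act on electrophiles such as lipid peroxidation products. Glucuronosyltransferases sit in the endoplasmic reticulum and clear bilirubin, steroids and phenols, and sulfotransferases of the cytosol act on phenols, estrogens, catecholamines and bile acids. The liver expresses most of these enzymes, many are induced through the NRF2, CAR, PXR or AHR regulators, and several differ between male and female mice.

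Levels are log2 intensities after background correction and quantile normalization, and a change is the difference of 2 group means on that scale with its standard error (SE). A probe is called where the adjusted p of limma's moderated test is under 0.05 over all 19631 probes. Between 15316 and 17463 probes were detected on an array, the median intensity was 63.5 to 75.4, and arrays of a group correlated across probes at 0.9773 or more. All 12 hepatocyte markers passed, with array means of 12.39 to 12.74 on hepatectomy arrays against 12.08 to 12.19 on sham arrays. Of these, 3, 4, 5 and 5 were higher and 1, 3, 3 and 1 lower after obese 70%, obese 80%, lean 70% and lean 80% hepatectomy. Of all probes, 44.1%, 49.6%, 43.8% and 51.9% were called in those comparisons. The mean of 9 pericentral hepatocyte markers was 9.37 to 9.75 on hepatectomy arrays against 9.74 to 10.01 on sham arrays. In the same order 2, 4, 4 and 3 were lower and 0 higher, shares near or under those of all probes. For 5 periportal markers that passed of 8 (not Sds, Gls2 and Hsd17b13), group means were 11.67 and 11.61 after obese 70% and 80% hepatectomy, against 11.96 in obese sham liver. In lean mice they were 12.23 and 12.03 against 11.86. Of these 5, 0, 0, 2 and 2 were higher and 1, 2, 1 and 1 lower. Several marker lists of other liver cells also moved with the groups. Of 7 endothelial markers that passed of 8 (not Kdr), 3 were higher after each hepatectomy. After obese 70%, obese 80%, lean 70% and lean 80% hepatectomy 2, 4, 1 and 1 were lower. The mean of the 5 neutrophil markers that passed of 10 (not Ly6g, Mpo, Elane, Camp and Ngp) was 6.62 to 8.34 on hepatectomy arrays, against 4.60 to 5.24 on sham arrays. Of 7 cholangiocyte markers, Krt19, Epcam, Spp1 and Cftr did not pass, and the mean of the other 3 was 6.44 to 7.29 on obese hepatectomy arrays against 6.08 to 6.20 on obese sham arrays, and 6.04 to 7.14 on lean hepatectomy arrays against 5.97 to 6.24 on lean sham arrays. These 3 did not move together. After obese 70%, lean 70% and lean 80% hepatectomy 1 was higher and 1 lower, and after obese 80% hepatectomy 1 was higher and 0 lower. Of 8 stellate cell and fibroblast markers that passed of 9 (not Lrat), 7 were higher after lean 70% hepatectomy, with array means of 6.64 to 7.45 against 5.89 to 6.19 in lean sham liver, and 3, 3 and 4 after obese 70%, obese 80% and lean 80% hepatectomy. Of 9 Kupffer cell and macrophage markers that passed of 11 (not Cd5l and Cd68), 7 were lower in obese than in lean liver after 70% hepatectomy, with array means of 7.58 to 7.98 against 7.70 to 9.16. All 9 were lower after lean 80% than after lean 70% hepatectomy, at 7.63 to 7.99 against 7.70 to 9.16. The part of changed cell content in the results below was not tested. In whole liver, fewer cells of a type and less RNA per cell cannot be told apart.

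The arrays lay on 4 slides of 6. Slide 1 held all lean sham arrays with obese sham arrays 1 and 2. Slide 2 held obese sham arrays 3 and 4 with the lean 70% arrays, slide 3 the obese 70% arrays with lean 80% arrays 1 and 2, and slide 4 the obese 80% arrays with lean 80% arrays 3 and 4. Slide and group can be separated for lean 70% hepatectomy against sham, for obese against lean liver after sham surgery and after 80% hepatectomy, for the interaction at 80%, and, through the lean 80% arrays, for obese 80% against obese 70% hepatectomy. They cannot be told apart for the other 3 comparisons of hepatectomy with sham, for lean 80% against lean 70% hepatectomy, for obese against lean liver after 70% hepatectomy, or for the interaction at 70%.

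Gsta1, Gsta2 and Gsta3 are glutathione transferases of the alpha class. Gsta1 and Gsta2 were called higher after some hepatectomies and Gsta3 lower after each, so the sequences before their start sites are shown first. Each is the 250 bases upstream of the RefSeq start, read on the gene's strand in build GRCm38.p6. Capitals in Gsta1 and Gsta2 mark runs of at least 12 bases that occur anywhere in the other of the pair. Capitals in Gsta3 mark matches to the searched motifs. The Gsta1 stretch lies at chr9:78230419-78230668, plus strand, that of Gsta2 at chr9:78347146-78347395, minus strand, and that of Gsta3 at chr1:21240335-21240584, plus strand.
Gsta1: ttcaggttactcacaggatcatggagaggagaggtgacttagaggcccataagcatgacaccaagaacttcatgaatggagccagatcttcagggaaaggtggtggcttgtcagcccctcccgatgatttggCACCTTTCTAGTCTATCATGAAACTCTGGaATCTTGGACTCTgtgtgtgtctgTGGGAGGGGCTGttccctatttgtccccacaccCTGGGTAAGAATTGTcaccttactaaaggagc
Gsta2: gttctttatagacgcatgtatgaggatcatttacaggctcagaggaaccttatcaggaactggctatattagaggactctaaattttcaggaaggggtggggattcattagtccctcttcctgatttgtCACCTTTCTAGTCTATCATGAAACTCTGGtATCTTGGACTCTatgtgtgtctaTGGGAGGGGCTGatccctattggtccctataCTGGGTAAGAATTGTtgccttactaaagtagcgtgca
Gsta3: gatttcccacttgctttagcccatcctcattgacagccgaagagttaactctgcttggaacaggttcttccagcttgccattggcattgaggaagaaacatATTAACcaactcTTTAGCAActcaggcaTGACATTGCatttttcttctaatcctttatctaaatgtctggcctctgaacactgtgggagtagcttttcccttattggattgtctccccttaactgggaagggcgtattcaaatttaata
Gsta1 and Gsta2 lie on the same chromosome on opposite strands and were identical in 190 of 266 columns of an alignment (71.4%). The capital runs, found apart from the alignment, held 68 bases. Identity was 54.8% between Gsta1 and Gsta3 and 51.7% between Gsta2 and Gsta3, with no shared run of at least 12 bases. The motifs searched, on both strands, were TGACNNNGC (the core of the antioxidant response element bound by NRF2), GTTAAT (an HNF1 site), TTGCNNAA (C/EBP) and GCGTG (AHR with ARNT). Gsta3 held the first at -121, the second at -149 and the third at -137 relative to the start, while Gsta1 and Gsta2 held only GCGTG, at -2 and -7. These are matches of letters, and a window without a match says nothing about the factor.

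Searched in the same way over 300 bases (250 before and 50 after the start), 64 windows of 53 member genes could be set beside all 32851 windows of the table. TGACNNNGC was in 4 member windows (6.25%) and in 12.4% of all, and GCGTG in 13 (20.3%) and 32.4% of all. GTTAAT was in 11 (17.2%) and 7.1% of all, among them Ugt1a1, Ugt1a6a, Ugt1a9, Ugt1a10, Ugt2a3 and Ugt3a1. TTGCNNAA was in 12 (18.8%) and 10.8% of all, among them Ugt2b1, Ugt2b36 and Ugt2b5.

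Gstk1 and Mgst3 were higher and 4 of 5 or more pi-class probes lower in obese than in lean liver at each of the 3 surgeries, and Gsta1 was higher after sham surgery and 80% hepatectomy. Against sham, more glucuronosyltransferase probes were lower than higher after obese 70%, obese 80% and lean 70% hepatectomy. Shares called there were 47.8%, 56.5% and 60.9%, against 44.1%, 49.6% and 43.8% of all probes. After lean 80% hepatectomy 5 of 23 were higher and 3 lower, a called share under that of all probes (34.8%, against 51.9%). Sult1a1 rose in each comparison with sham, as did Sult1e1 from levels below detection, and Gsta3 fell in each. Gsta1 was called higher on 2 of its 3 probes after obese 80%, all 3 after lean 70% and 2 after lean 80% hepatectomy, and Gsta2 after obese 80% and lean 70% hepatectomy. With slide as a term 1 Gsta1 probe and not Gsta2 was called after lean 70% hepatectomy.

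After obese 70% hepatectomy, 3 of the 68 probes were higher and 19 lower than in obese sham liver (32.4% called, against 44.1% of all probes tested, 20.5% higher and 23.6% lower). After obese 80% hepatectomy 6 were higher and 24 lower (44.1%, against 49.6% of all, 22.6% higher and 27.0% lower). Lean 70% hepatectomy gave 15 higher and 23 lower (55.9%, against 43.8% of all, 20.2% higher and 23.6% lower), and lean 80% hepatectomy 12 higher and 12 lower (35.3%, against 51.9% of all, 24% higher and 27.9% lower). The share of members called was thus close to or under that of all probes except after lean 70% hepatectomy. That count was 18 in place of 38 with slide as a term. The 15 higher probes there include a Sult2b1 probe that passed the filter through the lean 70% arrays alone. Median member changes were -0.20, -0.22, -0.23 and -0.10 for obese 70%, obese 80%, lean 70% and lean 80% hepatectomy, against -0.03, -0.03, -0.02 and -0.04 over all probes.

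Under upper-quartile scaling the share of called members that were higher was 28.6% in place of 13.6% after obese 70% hepatectomy, and 63.6% in place of 50% after lean 80% hepatectomy. Of the 68 probes, 7 were lower in all 4 comparisons with sham (10.3%, against 11.5% of all probes). They read Gsta3, Mgst1, Sult1c2, Ugt1a10 and Ugt2b35. Under upper-quartile scaling the Mgst1 probe, both Ugt1a10 probes and the brighter of the Gsta3 probes were no longer called in all 4. The 2 probes higher in all 4 read Sult1e1 and Sult1a1 (2.94%, against 9.78% of all), and 19 probes were called in none (27.9%, against 25.2%).

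**Figure D1:**
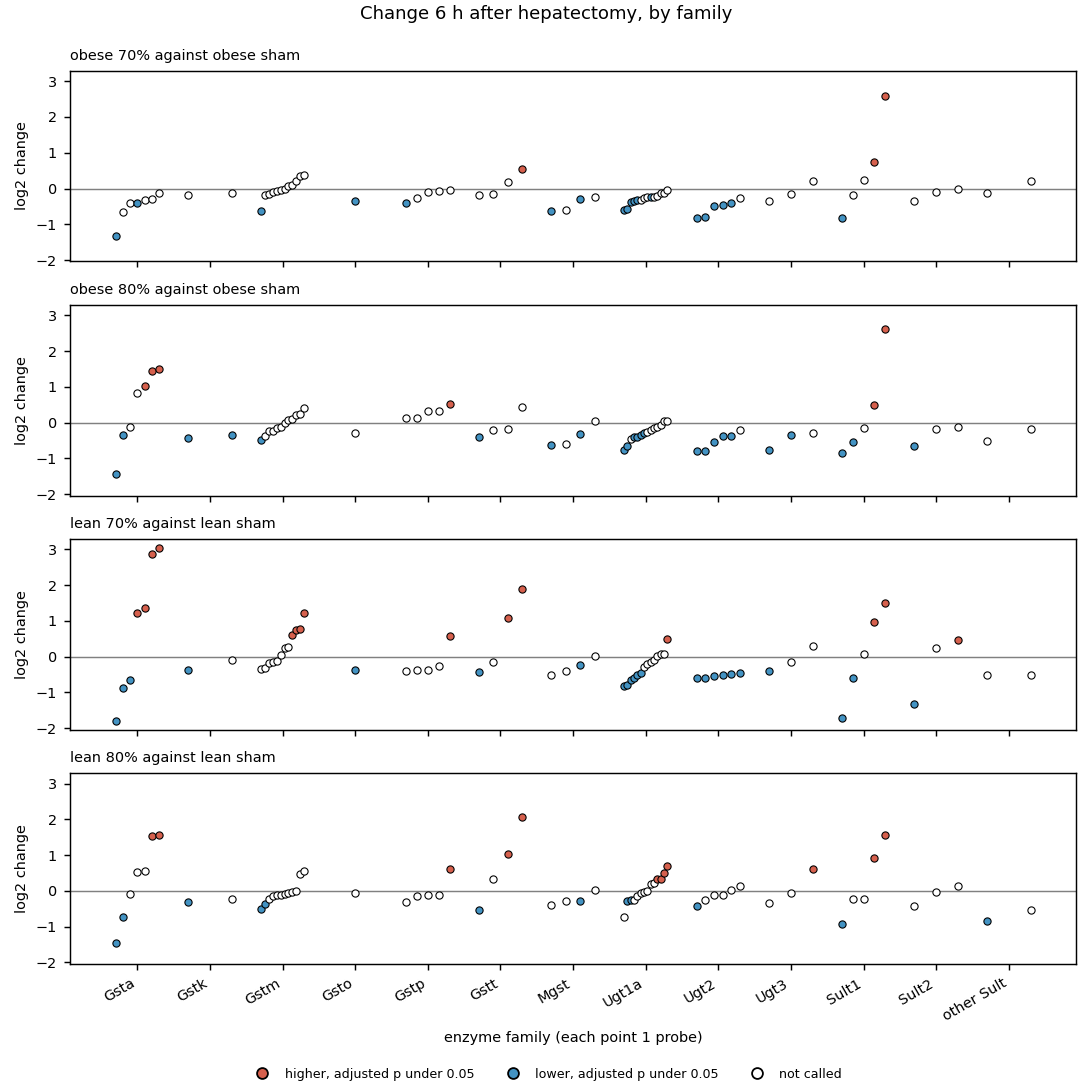
Log2 change of each member probe (1 point) by enzyme family, 6 h after hepatectomy against sham surgery, in 4 panels. Red (higher) and blue (lower) points had an adjusted p under 0.05, and white points were not called. The Ugt2 points lie at -0.21 or lower in the panels of obese 70%, obese 80% and lean 70% hepatectomy, and reach 0.15 after lean 80% hepatectomy.

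Obese against lean liver gave 21 higher and 5 lower members after sham surgery (38.2% called, against 10.5% of all probes tested, 5.44% higher and 5.11% lower). After 70% hepatectomy it gave 25 higher and 8 lower (48.5%, against 30.9% of all, 16.1% higher and 14.8% lower), and after 80% hepatectomy 20 higher and 7 lower (39.7%, against 19.7% of all, 10.4% higher and 9.27% lower). With slide as a term 16 members were called after sham surgery and 12 after 80% hepatectomy, in place of 26 and 27. Within slide 1 alone, 14 were called, and within slide 4 alone, 12. The 8 lower members after 70% hepatectomy include a Sult2b1 probe that passed the filter through the lean 70% arrays alone.

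The counts of each family differed by surgery, as did the share called over all probes. That share was 10.5% after sham surgery, 30.9% after 70% and 19.7% after 80% hepatectomy. Among the 35 glutathione transferase probes, 13 were higher and 5 lower in obese sham liver, 9 and 6 after 70% hepatectomy, and 18 and 5 after 80% hepatectomy (51.4%, 42.9% and 65.7% called). Of the 23 glucuronosyltransferase probes, 8, 12 and 1 were higher and 0, 1 and 2 lower at the same 3 surgeries (34.8%, 56.5% and 13% called). No sulfotransferase probe of 10 was called after sham surgery, while 4 were higher and 1 lower after 70% hepatectomy and 1 was higher after 80% hepatectomy. Their called shares were 0%, 50% and 10%. The lower one was a Sult2b1 probe that passed the filter through the lean 70% arrays alone, so its value is a description.

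**Figure D2:**
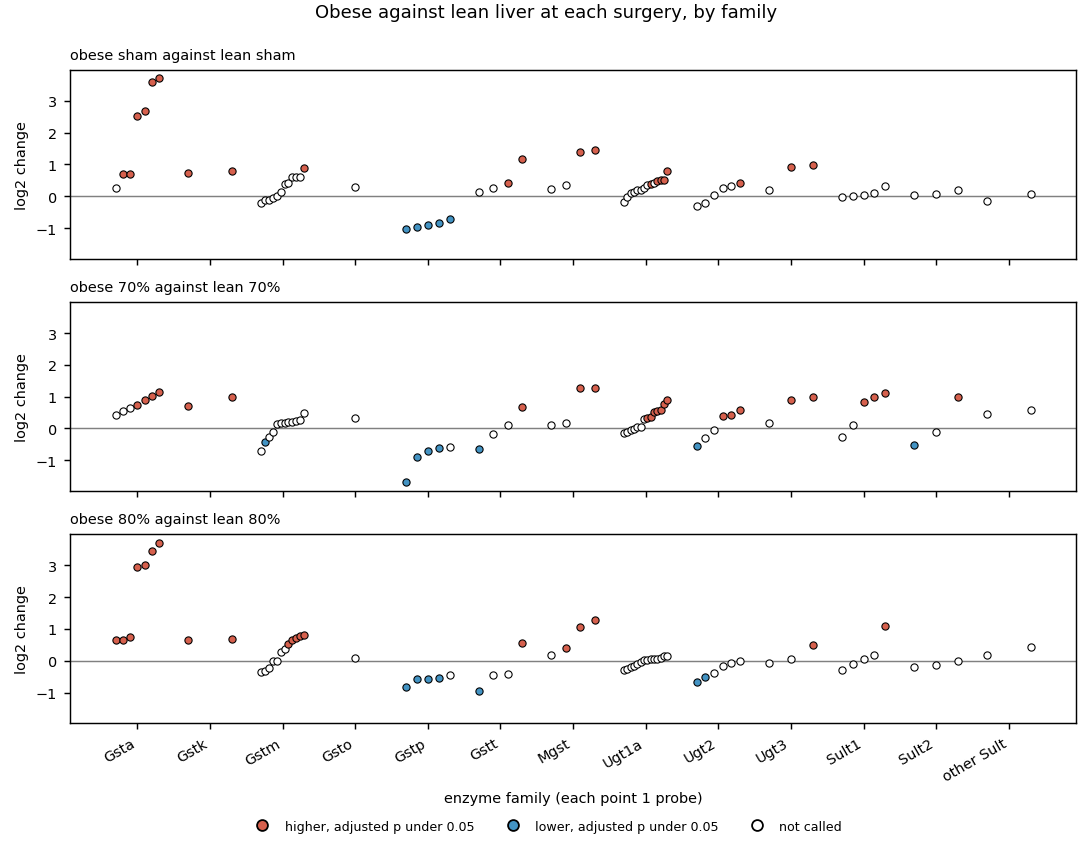
Log2 difference between obese and lean liver of each member probe (1 point) by enzyme family, after sham surgery, 70% and 80% hepatectomy. Red (higher) and blue (lower) points had an adjusted p under 0.05, and white points were not called. The plot shows 4 Gsta points that stand above 2.5 after sham surgery and after 80% hepatectomy. All Gstp points lie below 0 after sham surgery, and no Sult point is coloured there.

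Resection size was compared within each diet. In obese mice 80% against 70% hepatectomy called 9 members, 6 higher and 3 lower (13.2%, against 6.69% of all probes tested, 3.82% higher and 2.87% lower). In lean mice it called 21, 14 higher and 7 lower (30.9%, against 17.5% of all, 8.21% higher and 9.34% lower). The lean calls were led by glucuronosyltransferases, with 10 of 23 higher and none lower, and the obese calls by Gsta1 and Gsta2. Among the 7 lower lean calls is a Sult2b1 probe that passed the filter through the lean 70% arrays alone. The lean count was 13 without lean 70% array 2 or with slide as a random block. The obese count was 4 with slide as a term, where Gsta2 and 1 of 3 Gsta1 probes were called, and 4 to 5 without any of obese 70% arrays 1, 2 and 3 or obese 80% arrays 1 and 3. Under upper-quartile scaling 50% of the obese calls were higher in place of 66.7%.

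Gsta1, an alpha-class enzyme of lipid peroxide and xenobiotic conjugation that is strongly inducible in mice, was read by 3 probes. Probe ILMN_2979237 gave 9.48, 9.48, 11.11 and 10.43 on the obese sham arrays, 10.15, 10.19, 9.52 and 10.15 after obese 70% hepatectomy, and 12.10, 10.61, 11.63 and 11.91 after obese 80% hepatectomy. On the lean sham arrays it gave 7.36, 6.52, 6.60 and 5.65, after lean 70% hepatectomy 10.49, 9.97, 9.82 and 8.07, and after lean 80% hepatectomy 8.02, 8.92, 7.34 and 8.13. Obese sham liver lay above every lean sham array, lean 70% array 4 lay below the other arrays of its group, and obese 70% arrays lay within the range of obese sham arrays.

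In sham liver the 3 Gsta1 probes differed between obese and lean by 2.68 to 3.71 on the log2 scale (6.41-fold to 13.1-fold, adjusted p of limma 1.7e-05 to 3.9e-07). Obese sham arrays 3 and 4, on slide 2, were higher than arrays 1 and 2 on slide 1. Within slide 1 the differences were 1.97 to 3.22, all called. After 80% hepatectomy the obese minus lean difference was 2.94 to 3.70, and 3.05 to 3.98 within slide 4, again all called. After 70% hepatectomy no Gsta1 probe was called between diets.

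Lean 70% hepatectomy raised Gsta1 above lean sham by 3.05 ± 0.45 (SE, probe ILMN_2979237), 2.87 ± 0.38 (ILMN_1231997) and 1.36 ± 0.36 (ILMN_2657636), with no overlap of the groups. With slide as a term these changes were 1.77 (adjusted p = 0.091), 1.88 (adjusted p = 0.036) and -0.05 (adjusted p = 0.97), so 1 of 3 probes remained called. After lean 80% hepatectomy 2 of the 3 were called, at 1.57 and 1.53. In obese mice none was called after 70% hepatectomy, and 2 were higher after 80% hepatectomy, by 1.51 and 1.44, although their groups overlapped with obese sham. The change after 70% hepatectomy was lower in obese than in lean mice on each probe (interaction -3.18, -3.16 and -2.02, adjusted p 0.0014, 0.00031 and 0.0078). The interaction of probe ILMN_2657636 was not called with slide as a random block (adjusted p = 0.067).

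Gsta2, the neighbouring alpha-class gene, was read by 1 probe. Its levels were 9.59, 9.80, 10.97 and 10.37 in obese sham, 9.88, 9.70, 9.48 and 10.04 in obese 70% and 11.69, 10.27, 11.41 and 11.40 in obese 80% liver. In lean sham liver they were 7.58, 7.96, 7.77 and 7.33, in lean 70% liver 9.59, 9.07, 9.02 and 7.88, and in lean 80% liver 8.16, 8.64, 8.03 and 7.91. Every obese array was above every lean sham array, and lean 70% array 4 fell into the lean sham range.

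The obese minus lean difference of Gsta2 was 2.52 ± 0.32 after sham surgery and 3.01 ± 0.32 after 80% hepatectomy (SE, adjusted p of limma 6.6e-06 and 9.1e-07). It was 2.03 within slide 1 and 3.23 within slide 4, both called. Lean 70% hepatectomy raised Gsta2 by 1.23 ± 0.32 over lean sham (adjusted p = 0.0025), a change that was 0.25 with slide as a term (adjusted p = 0.79). Obese 80% hepatectomy raised it by 1.01 ± 0.32, with overlap of the groups, and its lean 80% change of 0.52 was not called (adjusted p = 0.17). After 70% hepatectomy the diets differed by 0.89 (adjusted p = 0.035, 0.16 without lean 70% array 4), and the interaction was -1.63 (adjusted p = 0.013, and 0.08 with slide as a random block). The probe sequences are not given in the files, so cross-reading between Gsta1 and Gsta2, between Gstp1 and Gstp2, or among Ugt1a transcripts that share their last exons cannot be told apart from separate signals.

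**Figure D3:**
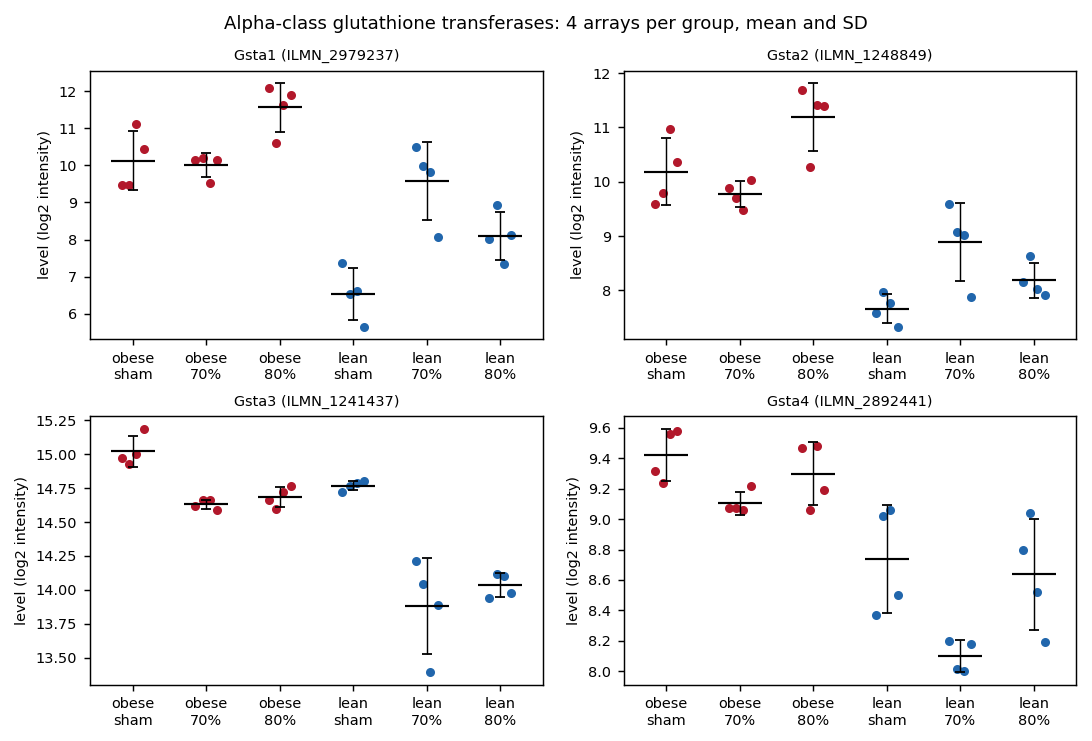
Level (log2 intensity) of Gsta1, Gsta2, Gsta3 and Gsta4 on each array, by group; bars give the mean and SD of 4 arrays. Gsta1 and Gsta2 are lowest in lean sham liver and highest in obese 80% liver, while Gsta3 is below its sham level after each hepatectomy.

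Gsta3, an abundant alpha-class enzyme of mouse liver known for conjugating aflatoxin epoxide, was lower after each hepatectomy. Probe ILMN_3138685 read 11.17, 11.41, 11.55 and 11.61 in obese sham, 9.97, 10.32, 10.18 and 9.93 in obese 70% and 9.72, 10.05, 9.91 and 10.36 in obese 80% liver. Lean sham arrays gave 10.64, 10.61, 10.90 and 10.81, lean 70% arrays 9.66, 9.38, 8.01 and 8.72, and lean 80% arrays 9.03, 9.28, 9.41 and 9.36. No hepatectomy array reached the sham arrays of its diet.

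Gsta3 fell on this probe by 1.34 and 1.43 after obese 70% and 80% hepatectomy, and by 1.80 and 1.47 after lean 70% and 80% hepatectomy (SE 0.22 each, adjusted p of limma 3.1e-05 to 4.4e-07). The brighter probe ILMN_1241437, with levels of 13.39 to 15.19 against a top of scale of 15.412, gave -0.39, -0.34, -0.89 and -0.73, all called. Under upper-quartile scaling its obese 70% change was 0.02. Obese liver was higher than lean on both probes after 70% hepatectomy (0.75 and 1.16) and after 80% hepatectomy (0.65 and 0.74). The 0.65 of ILMN_1241437 was 0.31 under upper-quartile scaling (adjusted p = 0.1), and the 0.74 of ILMN_3138685 was 0.62 with slide as a term (adjusted p = 0.16). Gsta4, which detoxifies the lipid peroxidation product hydroxynonenal, was higher in obese liver by 0.69 after sham surgery, 1.01 after 70% and 0.66 after 80% hepatectomy, and fell by 0.64 after lean 70% hepatectomy. Its sham difference was 0.54 with slide as a term and within slide 1 (adjusted p = 0.071 and 0.21).

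Among the mu class, Gstm2 rose on all 3 probes after lean 70% hepatectomy, by 0.60 to 0.77, and on none after lean 80% hepatectomy (-0.11 to -0.07). The 80% minus 70% difference in lean mice was -0.71 to -0.84, called on each probe. Gstm3 was detected on all 4 lean 70% arrays and on no lean sham array, at least 1.78-fold higher (adjusted p of limma 0.0019), although with slide as a term its change was 0.29 (adjusted p = 0.75). Gstm1, the bright mu-class gene that is deleted in many people, was higher in obese than in lean sham liver by 0.89 ± 0.20 (adjusted p = 0.0053), and by 0.68 within slide 1 (adjusted p = 0.2). No mu-class probe of 12 was called in either interaction.

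The pi class was lower in obese liver. Gstp1 probe ILMN_2677046 read 13.96, 13.95, 13.27 and 13.52 in obese sham, 13.72, 13.31, 13.25 and 14.05 in obese 70% and 13.89, 14.35, 14.08 and 13.69 in obese 80% liver. Its lean levels were 14.51, 14.70, 14.85 and 14.55 after sham surgery, 14.24, 14.35, 14.30 and 14.24 after 70% hepatectomy, and 14.75, 14.79, 14.38 and 14.27 after 80% hepatectomy. The diets did not overlap after sham surgery or 70% hepatectomy and overlapped after 80% hepatectomy.

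All 5 pi-class probes were lower in obese than in lean sham liver, by 0.71 to 1.04 on the log2 scale, and 4 of 5 after each hepatectomy. Within slide 1 the 3 Gstp1 probes differed by -0.70 to -0.91, all called. Within slide 4, after 80% hepatectomy, they differed by -0.33 to -0.81 and none was called (adjusted p of limma 0.07 to 0.31). Gstp1 and Gstp2 are known to be higher in male than in female mouse liver. Of 12 other male-predominant liver genes, 9 were lower and 1 higher in obese than in lean sham liver (median -1.70, against -0.00 over all probes), led by Moxd1 (-5.72), Hsd3b5 (-3.79) and Cyp4a12b (-2.59). Of 9 measured female-predominant genes 5 were higher (median 1.02), led by Cyp2b9 (5.99) and Acot3 (3.50). In that comparison 10.5% of all probes were called. Whether the pi-class difference belongs with these was not tested.

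Gstp1 probe ILMN_2793329 did not follow the other 2 probes of the gene. It rose by 0.57 and 0.62 after lean 70% and 80% hepatectomy, where they gave -0.39 to -0.10, none called. The lean 70% change was 0.16 with slide as a term (adjusted p = 0.76). Its interaction at 70% hepatectomy was -0.99 (adjusted p of limma 0.006).

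Gstt3, a theta-class enzyme, had obese sham levels of 11.69, 11.42, 11.74 and 11.78, obese 70% levels of 12.18, 12.25, 12.27 and 12.07 and obese 80% levels of 11.69, 12.22, 12.16 and 12.29. Its lean sham levels were 9.78, 10.83, 10.89 and 10.38, its lean 70% levels 12.18, 12.46, 12.50 and 12.29, and its lean 80% levels 12.10, 12.65, 12.83 and 12.60. Lean sham arrays were below all others, and the hepatectomy arrays of both diets overlapped.

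Gstt3 rose by 1.89 and 2.07 after lean 70% and 80% hepatectomy (3.70-fold and 4.21-fold, SE 0.19, adjusted p of limma 1.2e-08 and 1.6e-09). The lean 70% change was 1.68 with slide as a term, still called. In obese mice it rose by 0.54 after 70% hepatectomy (adjusted p = 0.021, but 0.072 without obese sham array 2 and 0.05 without obese 70% array 3), and the 80% change of 0.44 was not called. The interaction was -1.35 at 70% and -1.64 at 80% hepatectomy (adjusted p 0.0011 and 0.00033), and -1.70 at 80% with slide as a term (adjusted p = 0.0043). Obese sham liver was higher than lean by 1.18 ± 0.19, and by 1.08 within slide 1 (adjusted p = 0.072). Gstt1 was higher in obese liver by 0.42 to 0.69 at the 3 surgeries and fell by 0.40 to 0.55 after obese 80%, lean 70% and lean 80% hepatectomy. A dim Gstt2 probe (ILMN_2554549) was detected on all lean hepatectomy arrays and no lean sham array, at least 1.66-fold and 1.62-fold higher, and its brighter probe was called in neither comparison.

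Mgst3, a membrane enzyme able to form leukotriene C4, was higher in obese liver on both probes at each surgery, by 1.40 and 1.47 after sham surgery, 1.27 and 1.27 after 70% hepatectomy and 1.08 and 1.27 after 80% hepatectomy. Its obese sham arrays (8.47 to 9.26 on ILMN_1238479) did not overlap its lean sham arrays (6.99 to 7.76). Within slide 1 the differences were 1.15 and 1.26, both called. Gstk1, found in mitochondria and peroxisomes, was also higher in obese liver at each surgery, by 0.65 to 0.98, with no overlap on either probe. Its probe ILMN_2776008 gave 13.25, 13.17, 13.23 and 13.29 in obese sham liver, against 12.33, 12.66, 12.46 and 12.33 in lean sham liver. Mgst1, the bright microsomal enzyme, fell by 0.24 to 0.32 on probe ILMN_2940195 after each hepatectomy. Under upper-quartile scaling that fall was lost in each, with 0.10 after lean 80% and 0.08 after obese 70% hepatectomy. The other Mgst1 probe, ILMN_2669416, was called in none. It gave -0.24, 0.05, 0.03 and 0.03 after obese 70%, obese 80%, lean 70% and lean 80% hepatectomy.

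Of the 23 glucuronosyltransferase probes, 11 were lower and none higher after obese 70% hepatectomy (47.8% called, against 44.1% of all probes), and 13 were lower and none higher after obese 80% hepatectomy (56.5%, against 49.6%). After lean 70% hepatectomy 13 were lower and 1 higher (60.9%, against 43.8%), and after lean 80% hepatectomy 3 were lower and 5 higher (34.8%, against 51.9%). Ugt2 enzymes, which act on steroids and bile acids, accounted for 5, 5, 6 and 1 of the lower calls, of 6 probes in each. Their median changes were -0.47, -0.46, -0.53 and -0.11, so the Ugt2 fall seen in the other 3 comparisons was called on Ugt2b35 alone after lean 80% hepatectomy.

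Ugt2a3 is shown for the Ugt2 genes because its window held a pair of HNF1 motifs (GTTAAT, in capitals) at -54 and -47. The 250 bases lie at chr5:87337196-87337445, minus strand, in GRCm38.p6.
Ugt2a3: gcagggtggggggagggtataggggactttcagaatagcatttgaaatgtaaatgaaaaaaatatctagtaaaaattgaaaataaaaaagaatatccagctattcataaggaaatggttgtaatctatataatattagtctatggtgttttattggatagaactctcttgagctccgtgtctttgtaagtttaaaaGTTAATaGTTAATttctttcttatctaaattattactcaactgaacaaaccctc
Its levels were 9.64, 9.77, 9.60 and 9.90 in obese sham, 9.17, 9.25, 9.08 and 9.44 in obese 70% and 8.88, 9.17, 8.84 and 8.87 in obese 80% liver. In lean sham, 70% and 80% liver they were 9.21, 9.38, 9.26 and 9.34, then 8.92, 8.78, 8.45 and 9.18, then 9.46, 9.59, 9.06 and 9.66. Both obese hepatectomy groups and the lean 70% group lay below their sham arrays, and the lean 80% group overlapped them.

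Ugt2a3 fell by 0.49 and 0.79 after obese 70% and 80% hepatectomy and by 0.47 after lean 70% hepatectomy (adjusted p of limma 0.0054, 4.1e-05 and 0.0077). With slide as a term the lean 70% change was -0.51 (adjusted p = 0.16). The obese minus lean change at 80% hepatectomy was -0.93 (adjusted p = 0.0036), and -0.83 with slide as a term (adjusted p = 0.066). Ugt2b35 fell by 0.80 in both obese comparisons, by 0.55 after lean 70% and by 0.43 after lean 80% hepatectomy. Ugt2b36, a bright probe pair, fell by 0.51 and 0.58 after lean 70% hepatectomy and gave 0.03 and -0.10 after lean 80% hepatectomy.

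Within the Ugt1a locus, whose transcripts join different first exons to shared later ones, Ugt1a6a differed between the resections in lean mice, where slide and group cannot be told apart. This enzyme conjugates simple phenols. Probe ILMN_1212835 read 9.12, 9.27, 9.06 and 9.24 in obese sham, 8.48, 8.53, 8.72 and 8.66 in obese 70% and 8.58, 8.44, 8.27 and 8.39 in obese 80% liver. In lean liver it read 8.34, 8.62, 8.86 and 8.77 after sham surgery, 7.96, 7.72, 7.64 and 7.98 after 70% hepatectomy, and 8.63, 8.83, 8.67 and 8.38 after 80% hepatectomy. Lean 70% arrays were the lowest, and lean 80% arrays overlapped the lean sham arrays.

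Ugt1a6a fell on this probe by 0.58, 0.75 and 0.82 after obese 70%, obese 80% and lean 70% hepatectomy, and its lean 80% change of -0.02 was not called. Probe ILMN_2418855 was called higher after lean 80% hepatectomy (0.34, adjusted p = 0.016), and the gene's other probe was not (0.20). Lean 80% minus lean 70% liver was 0.81 (adjusted p of limma 4.9e-05), and 0.99 on probe ILMN_2418855. The obese minus lean change at 80% hepatectomy was -0.73 and -0.74 on these 2 of the gene's 3 probes (adjusted p 0.0063 and 0.0056), and -0.45 on the other (adjusted p = 0.087). Those of the first 2 were -0.65 and -0.59 with slide as a term (adjusted p = 0.085 and 0.11). Ugt1a1, the bilirubin-conjugating enzyme, rose by 0.34 after lean 80% hepatectomy and fell by 0.29 after obese 80% hepatectomy (interaction -0.63, adjusted p = 0.014, and -0.54 with slide as a term, adjusted p = 0.16).

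Ugt1a10 was read by 4 probes that were called in opposite directions. ILMN_2419146 rose by 0.49 after lean 70% and 0.68 after lean 80% hepatectomy, while ILMN_1222543 fell by 0.59 and 0.28 and ILMN_2493826 by 0.46 and 0.25. With slide as a term the lean 70% change of ILMN_2419146 was -0.46 (adjusted p of limma 0.11), and under upper-quartile scaling the lean 80% change of ILMN_2493826 was 0.01. Ugt3a1, whose human counterpart uses N-acetylglucosamine in place of glucuronic acid, was higher in obese than in lean liver on both probes after sham surgery (0.98 and 0.93) and after 70% hepatectomy (0.88 and 0.98). After 80% hepatectomy it was called higher on ILMN_2918732 (0.50, adjusted p = 0.021) and not on ILMN_2766826 (0.06, adjusted p = 0.81). The interaction of ILMN_2766826 at 80% was -0.92 (adjusted p = 0.0048), and -0.65 with slide as a term (adjusted p = 0.14).

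**Figure D4:**
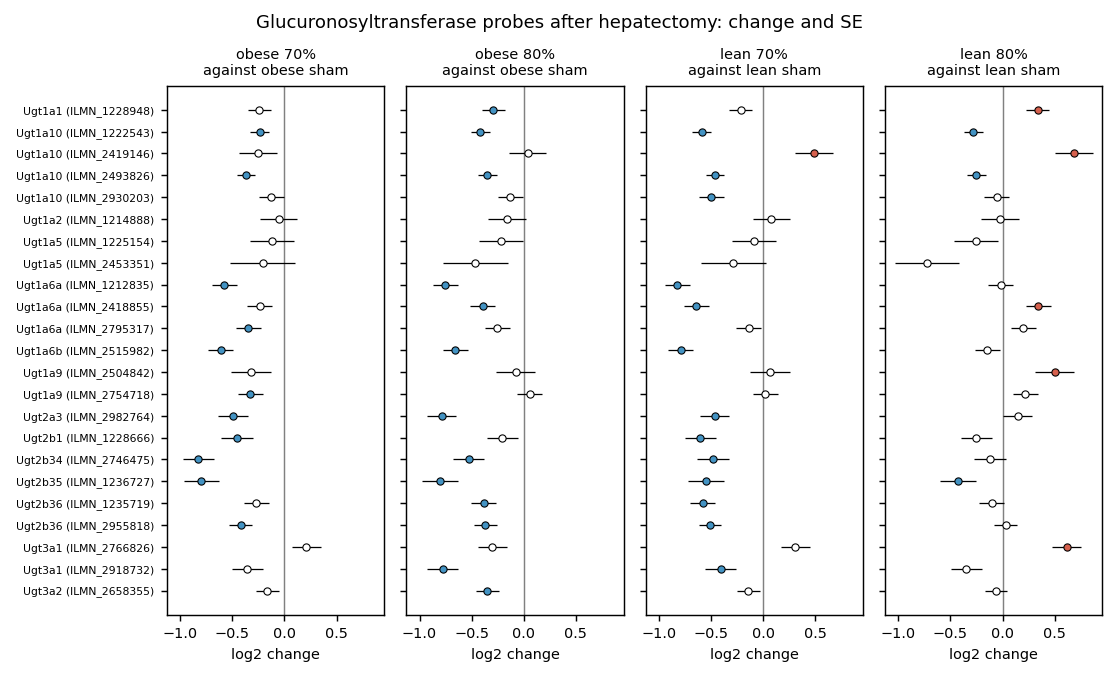
Log2 change with its SE of each glucuronosyltransferase probe (rows) against sham liver of the same diet, in 4 panels. Red (higher) and blue (lower) points had an adjusted p under 0.05, and white points were not called. Blue (lower) points number 11, 13, 13 and 3 for obese 70%, obese 80%, lean 70% and lean 80% hepatectomy.

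Sult1e1, the estrogen sulfotransferase, was detected on none of the 8 sham arrays and on all 16 hepatectomy arrays. Its probe passed the filter through the hepatectomy groups alone, so the rise of Sult1e1 over sham is a description. Its levels were 7.08, 7.30, 7.39 and 6.50 in obese 70% liver and 6.41, 7.78, 7.07 and 7.19 in obese 80% liver, against 4.32, 4.57, 4.58 and 4.51 in obese sham liver. In lean 70% liver they were 5.62, 6.13, 5.95 and 6.10 and in lean 80% liver 5.50, 5.78, 6.28 and 6.55, against 4.68, 4.43, 4.37 and 4.34 in lean sham liver. No hepatectomy array overlapped the sham arrays, and all obese 70% arrays were above all lean 70% arrays.

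Against the detection floor, Sult1e1 was at least 4.83-fold and 4.98-fold higher after obese 70% and 80% hepatectomy, and at least 2.13-fold and 2.25-fold higher after lean 70% and 80% hepatectomy. The obese minus lean difference was 1.12 ± 0.23 after 70% and 1.08 ± 0.23 after 80% hepatectomy (SE, adjusted p of limma 0.00074 and 0.0018). Within slide 4 the difference after 80% hepatectomy was 0.70 (adjusted p = 0.2). The interactions, which rest on sham levels below detection, were 1.09 at 70% (adjusted p = 0.023, and 0.052 with slide as a random block or without obese 70% array 3) and 1.05 at 80% (adjusted p = 0.043, and 0.079 with slide as a random block). As a fixed term slide left 0.71 at 80% (adjusted p = 0.35). The 80% interaction was also lost on leaving out any sham array.

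Sult1a1, a phenol sulfotransferase, read 13.58, 13.75, 13.88 and 14.04 in obese 70% and 13.36, 13.83, 13.54 and 13.53 in obese 80% liver, against 12.99, 13.12, 13.05 and 13.09 in obese sham liver. In lean mice it read 13.59, 13.75, 13.74 and 13.78 after 70% and 13.29, 13.78, 13.66 and 13.93 after 80% hepatectomy, against 12.98, 12.82, 12.73 and 12.45 after sham surgery. All hepatectomy arrays were above all sham arrays of their diet. The rises were 0.75 and 0.50 in obese mice and 0.97 and 0.92 in lean mice (SE 0.13, adjusted p of limma 0.0028 to 1.6e-06), and 0.95 for lean 70% hepatectomy with slide as a term.

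Sult1c2 fell in each comparison. Its levels were 6.78, 6.84, 6.55 and 6.32 in obese 70% and 6.80, 6.37, 6.75 and 6.41 in obese 80% liver, against 7.22, 7.56, 7.45 and 7.55 in obese sham liver. In lean 70% and 80% liver they were 5.72, 5.52, 5.45 and 5.83, then 6.44, 6.74, 6.23 and 6.25, against 7.15, 7.20, 7.58 and 7.42 in lean sham liver. Lean 70% arrays were below all others. Sult1c2 fell by 0.82 and 0.86 in obese and by 1.71 and 0.92 in lean mice after 70% and 80% hepatectomy, and the interaction at 70% was 0.88 (adjusted p of limma 0.0039).

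Sult2a8, a bile acid sulfotransferase of mouse liver, showed a fall that was largest after lean 70% hepatectomy. Its lean 70% levels were 11.11, 10.17, 10.28 and 11.51, against 11.81, 12.24, 12.07 and 12.21 in lean sham liver, while obese 70% and obese sham arrays gave 11.70, 11.73, 11.83 and 11.83 against 12.19, 12.19, 11.68 and 12.40. The lean groups did not overlap and the obese groups did. It fell by 1.31 ± 0.22 after lean 70% hepatectomy (adjusted p of limma 2.6e-05) and by 1.17 with slide as a term, still called, and its obese 70% change of -0.34 was not called. The interaction was 0.97 (adjusted p = 0.031, and 0.13 with slide as a random block). Sult1d1, which acts on catecholamines, fell by 0.58 after lean 70% and 0.54 after obese 80% hepatectomy on its bright probe, with an interaction at 70% of 0.83 (adjusted p = 0.017, and 0.067 with slide as a random block). The lean 70% change was -0.32 with slide as a term (adjusted p = 0.47). Sult2b1, a cholesterol sulfotransferase, was detected by probe ILMN_2766827 on the 4 lean 70% arrays, at 4.89 to 5.10, and on no other array, so the probe passed the filter through that group alone and its levels are a description. Its probe ILMN_2791179 was detected on 1 array each of obese 70%, obese 80%, lean 70% and lean 80% liver and was called in no comparison with sham. Sult5a1 probe ILMN_2922178 fell by 0.83 after lean 80% hepatectomy, with overlap of the groups. Sult1b1, Sult1c1, Sult2a1, Sult2a2, Sult2a6, Sult3a1, Sult3a2, Sult4a1 and Sult6b1 did not pass the detection filter.

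**Figure D5:**
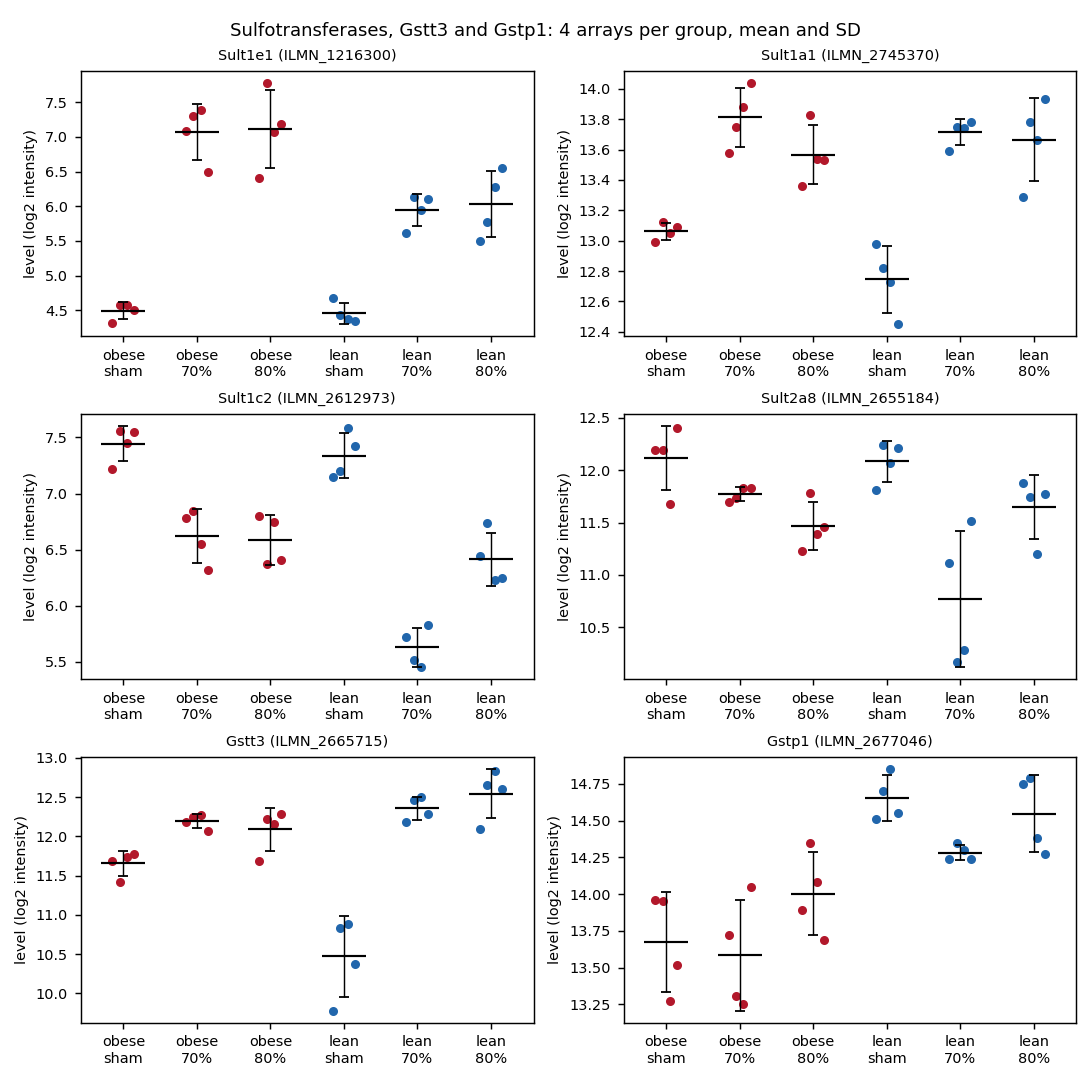
Level (log2 intensity) of Sult1e1, Sult1a1, Sult1c2, Sult2a8, Gstt3 and Gstp1 on each array, by group; bars give the mean and SD of 4 arrays. Sult1e1 sits between 4.32 and 4.68 in both sham groups and between 5.50 and 7.78 after hepatectomy, higher in obese than in lean mice.

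The change of each member after 70% hepatectomy differed between diets for 14 of 68 probes, 5 higher and 9 lower in obese mice (20.6%, against 17.9% of all probes tested, 8.76% higher and 9.14% lower). After 80% hepatectomy it differed for 8, 1 higher and 7 lower (11.8%, against 9.11% of all, 4.81% higher and 4.30% lower). Shares of this size are near the background. The 9 lower probes at 70% include that of Sult2b1, which passed the filter through the lean 70% arrays alone. Under upper-quartile scaling the higher share at 70% was 46.7% in place of 35.7%, and with slide as a random block 7 members were called there. With slide as a term 1 member, Gstt3, was called at 80%.

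Genes that feed and regulate conjugation were described next, with no test of the lists. For glutathione supply, 0 of 7 measured genes rose after obese 70%, 1 after obese 80%, 4 after lean 70% and 4 after lean 80% hepatectomy, with 1, 2, 0 and 1 lower. The shares called over all probes were 44.1%, 49.6%, 43.8% and 51.9%. Gclc, the catalytic subunit of glutathione synthesis, rose by 2.19 after obese 80%, 1.41 after lean 70% and 1.38 after lean 80% hepatectomy. Cth, which makes cysteine, rose by 2.33 and 2.01 after lean 70% and 80% hepatectomy. Gclc was also higher in obese than in lean liver, by 0.92 after sham surgery and 1.73 after 80% hepatectomy.

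Other NRF2-responsive detoxification genes (10 measured) rose in 3, 4, 4 and 3 cases after obese 70%, obese 80%, lean 70% and lean 80% hepatectomy, and 1, Ftl1, was lower after obese 70% hepatectomy (-0.33). Over all probes 44.1%, 49.6%, 43.8% and 51.9% were called there, larger shares than in this list. Srxn1 rose by 1.98, 3.49, 3.21 and 2.86, Hmox1 by 1.69, 2.35, 3.86 and 2.56, and Txnrd1 by 0.90, 1.81, 1.81 and 1.72 in the same order. In obese sham liver 5 were higher than in lean and none lower (against 10.5% of all probes called), among them Nqo1 (0.87) and Ephx1 (0.95). After 70% hepatectomy 4 were higher and 4 lower in obese liver (against 30.9%), the lower ones being Hmox1 (-1.45), Srxn1 (-0.91), Txnrd1 (-0.46) and Ftl1 (-0.35), and after 80% hepatectomy 5 were higher and none lower (against 19.7%). The list is not independent of Gsta1 and Gsta2, which are NRF2 targets in mice.

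For sulfate donor supply, Papss2, which makes the sulfate donor, fell by 0.39, 0.75, 0.69 and 0.44 after obese 70%, obese 80%, lean 70% and lean 80% hepatectomy. The sulfate transporter Slc26a1 fell by 1.58, 1.77, 1.62 and 2.23 in that order. Of the 8 genes of that list, 4, 5, 5 and 4 were lower and 2 higher in each, where 44.1%, 49.6%, 43.8% and 51.9% of all probes were called. For glucuronic acid supply 3 of 7 genes passed, and Pgm1, an enzyme of sugar phosphate conversion, fell by 0.52, 0.64, 0.27 and 0.47.

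Of 10 measured regulators, 3, 3, 4 and 4 were lower and 0, 2, 3 and 4 higher after obese 70%, obese 80%, lean 70% and lean 80% hepatectomy. Called shares over all probes were 44.1%, 49.6%, 43.8% and 51.9%. The xenobiotic receptor CAR (Nr1i3) fell, with changes of -1.33, -1.95, -1.26 and -1.08, as did the bile acid receptor FXR (Nr1h4), with -1.51, -2.16, -1.94 and -2.04. Nfe2l2, which encodes NRF2, rose by 0.66 after obese 80%, 0.63 after lean 70% and 0.81 after lean 80% hepatectomy. Of 9 measured target oxidases of CAR, PXR and AHR, 3, 4 and 2 were higher in obese than in lean liver after sham surgery, 70% and 80% hepatectomy. Lower were 1, 0 and 1, where 10.5%, 30.9% and 19.7% of all probes were called. Cyp2b9, named above among the female-predominant genes, is on this list too, so the 2 lists are not independent. Cyp2b10 was higher in obese than in lean liver by 3.02 after sham surgery, 2.79 after 70% and 0.81 after 80% hepatectomy. Of 6 measured conjugate exporters 3, 4 and 2 were higher and 0 lower, and Abcc3 was higher in obese liver by 1.65, 1.82 and 1.30 at the same 3 surgeries, and Abcc6 fell by 0.73 to 1.23 after each hepatectomy.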

How the data were processed

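Values of 24 Illumina BeadChip arrays of mouse liver were used, 4 for each of the 6 groups. The deposited table gives, for 45281 probes and each array, an intensity (linear bead average, not normalized between arrays, per the file headers) and a detection value that the headers call a p-value. It is a fraction that rises from 0 to 1 with brightness in the deposited table, so its distance from 1 served as the detection p. Processed log2 values that the authors deposited for the same arrays, centred on each probe, served only as an alternative. Per the labels' protocols, RNA was amplified to biotinylated cRNA.

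Intensities were background-corrected (normexp from the detection p, offset 16), quantile-normalized and put on the log2 scale with limma 3.58.1 in R 4.3.3. Probes with a detection p under 0.05 on at least 4 arrays were kept (19631). All 6 group means were fitted jointly in limma (18 residual df), and 11 two-sided contrasts were tested, with Benjamini-Hochberg adjustment over all kept probes. With 4 arrays per group, their number limits the precision. A fold against a group with no detected array is a bound from the detection floor, 4.731 to 4.919 by array.

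All 98 member probes matched a RefSeq gene by Entrez ID, and 28 genes had several probes, which were kept apart. Slides come from the chip identifiers in the labels. Replicate numbers do not pair arrays: same-numbered arrays correlated at -0.19 to 0.16. Alternatives were no background correction, upper-quartile scaling, offset 50, no or a stricter filter (0.01), 1 probe per gene, the authors' values, slide as a random block (correlation 0.123) or fixed term, a replicate block, only the groups compared, each array left out, and single slides; the last was added after seeing the data. The fit was tested on simulated data. The members and the gene lists were chosen with earlier results of these data known.

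Full values are given to Gsta1 and Gsta2, to members called at 2-fold or more, called in an interaction, brightest in a family or with probes called in opposite directions, and to up to 4 called genes of each list. Other members are named with short values. Promoter sequences are RefSeq's, build GRCm38.p6.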

Additional observations from a re-analysis of the deposited data

Results flagged for a closer look

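Among 37 named probes in 6 groups (222 groups of 4 arrays), 8 groups held 1 array far from the other 3, and chance marks about 1 in 20 groups. In obese 70% liver these were Gsta4 on array 4 (9.22, the others 9.06 to 9.07), Gsta1 probe ILMN_2979237 on array 3 (9.52, the others 10.15 to 10.19) and Mgst3 probe ILMN_1238479 on array 4 (7.62, the others 8.29 to 8.43). In obese 80% liver they were Gsto1 on array 2 (10.40, the others 10.72 to 10.78), Ugt2a3 on array 2 (9.17, the others 8.84 to 8.88) and Gstt2 probe ILMN_2554549 on array 3 (4.40, the others 4.67 to 4.69). In lean 70% liver they were Gstm1 on array 4 (12.25, the others 12.38 to 12.39) and Sult2b1 on array 1 (4.89, the others 5.07 to 5.10).

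A difference between diets in the response to hepatectomy, tested as the interaction in limma, was called 22 times. At 70% hepatectomy the obese change was lower than the lean change for Gsta1 (-3.18, -3.16 and -2.02 on its 3 probes), Gsta2 (-1.63), Gstt3 (-1.35), Gstp1 probe ILMN_2793329 (-0.99), Gstt2 (-0.90), Ugt1a10 probe ILMN_2419146 (-0.74) and Sult2b1 (-0.58). The Sult2b1 probe passed the filter through the lean 70% arrays alone, so its value is a description. The obese change was higher for Sult1e1 (1.09), Sult2a8 (0.97), Sult1c2 (0.88), Sult1d1 (0.83) and Gsta3 probe ILMN_1241437 (0.49). At 80% hepatectomy it was lower for Gstt3 (-1.64), Gstt2 (-1.22), Ugt2a3 (-0.93), Ugt3a1 (-0.92), Ugt1a6a (-0.74 and -0.73 on 2 probes) and Ugt1a1 (-0.63), and higher for Sult1e1 (1.05). Slide and group cannot be told apart in the interactions at 70%, and at 80% only Gstt3 of the 8 was called with slide as a term.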

How the results depend on the processing

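Of 1885 comparisons of a named probe's called change under another setting, 1722 kept the direction and the call, 156 lost the call and 7 turned; with 1 array left out, 1472 of 1656 kept both, 184 lost the call and 0 turned. The turned values were, under upper-quartile scaling, Ugt1a10 probes ILMN_2493826 (0.01, lean 80%) and ILMN_1222543 (0.02, obese 70%), Mgst1 (0.10, lean 80%, and 0.08, obese 70%) and Gsta3 (0.02, obese 70%), and with slide as a fixed term, lean 70%, Gsta1 probe ILMN_2657636 (-0.05) and Ugt1a10 probe ILMN_2419146 (-0.46); the cause was not tested.

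Counts of called members moved by over 1.5 times as follows. Upper-quartile scaling gave 14 for obese 70% against sham, where the reported count is 22. With 1 probe per gene, which tests fewer members (42), the counts were 24 for lean 70%, 15 for lean 80%, 21 for obese against lean at 70%, 17 at 80%, 13 for 80% against 70% in lean and 4 in obese mice, and 9 and 5 for the interactions at 70% and 80%. Slide as a random block gave 13 for 80% against 70% in lean mice, 4 in obese mice and 7 for the interaction at 70%. Slide as a fixed term gave 18 for lean 70%, 16 for obese against lean sham, 12 for obese against lean at 80%, 4 for obese 80% against 70% and 1 for the interaction at 80%. Fitting only the groups compared gave 10 for lean 80% against 70%, and single slides gave 14 (slide 1, sham) and 12 (slide 4, 80%).

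With an array left out, counts were 17 to 23 for obese 70%, 27 to 32 for obese 80%, 33 to 40 for lean 70% and 20 to 23 for lean 80% against sham. They were 21 to 27, 28 to 35 and 22 to 28 for obese against lean after sham surgery, 70% and 80% hepatectomy, 4 to 10 and 13 to 26 for 80% against 70% in obese and lean mice, and 10 to 17 and 7 to 10 for the interactions at 70% and 80%.

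With the replicate block the counts were 19, 31, 38 and 23 for obese 70%, obese 80%, lean 70% and lean 80% against sham, all within 1.5 times of those reported, as were the others; shared numbers gave no sign of pairing (8 of 60 same-numbered pairs correlated above 0.1, median 0.0084). Signal limits the dim probes: Gstm3, Gstt2, Sult2b1 and Sult1e1 have groups at or below the detection floor, where sizes of change depend on background.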
